A study of Mus musculus with 2 samples.

Results

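The genes described here are 36 mouse genes whose products write, erase or help to write methyl groups on lysines of histone H3. They were chosen by function, as the probesets that the platform annotation names with 1 of the 36 symbols, or its older synonym, alone. The 36 genes have 1077 probesets, and all 36 were among the 15087 measured genes of 21946 genes named on the array. A gene was measured if at least 4 of its probesets were bright, meaning that it reached 3.17, the median value of the table, in at least 1 array. Of the 1077 probesets, 1023 were bright.

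The cells were derived from a mouse embryonic stem cell line, Bry-GFP. FLK1+ cells were isolated from embryoid bodies on day 3, and the CD41 compartment was sorted on day 2 of the culture that followed. The control group was the culture given DMSO. The other group was the culture given 300 nM of an LSD1 inhibitor that the labels call compound B. The labels name the cells hemogenic endothelial and name no other difference between the groups. Each group is 1 array of total RNA, so no difference below has a replicate check, no test between the groups was possible, and values describe these 2 arrays of 1 cell line. In RNA from a sorted population, fewer cells of a type and less RNA per cell cannot be told apart.

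Methyl groups on histone lysines are placed by enzymes, most of which share a catalytic SET domain, and removed by the JmjC-domain demethylases and by the amine oxidases LSD1 and LSD2. Methylation of H3K4 marks promoters and enhancers in use, methylation of H3K36 and H3K79 accompanies transcribed genes, and methylation of H3K9 and H3K27 accompanies silent chromatin. LSD1, the target of compound B, removes methyl groups from H3K4 and is brought to genes in blood precursors by the repressors Gfi1 and Gfi1b. H3K27 is methylated by Polycomb repressive complex 2 (PRC2), in which Ezh1 and Ezh2 are alternative catalytic subunits. Ezh2 is the form typical of dividing cells, and Ezh1 is the form found also in cells that divide little.

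The levels of these genes were much alike with and without the inhibitor, with a single exception, Ezh1. Ezh1 was 2.24-fold higher in the inhibitor array, and each of the other 35 genes lay between -0.26 and 0.27 on the log2 scale. By the size rule, a difference of at least 1 in log2 (2-fold) with at least 75% of a gene's bright probesets in that direction, 1 of 36 genes was higher and none was lower. Among all measured genes 1.72% were higher and 0.563% were lower by that rule. With the threshold at 1.5-fold, Ezh1 was again the only gene of the 36 that was higher and none was lower, against 5.85% and 2.66% of all measured genes. A share of 1 in 36 is near the background. The 2-fold call of Ezh1 depends on probesets dim in 1 array. Over its 15 probesets bright in both arrays Ezh1 differed by 0.88, which passed the 1.5-fold rule and fell short of 2-fold.

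Because the results turn on Ezh1 and its paralog Ezh2, the RefSeq sequences around their starts are shown, 250 bases before to 50 after, on the minus strand of GRCm38.p6. The window of Ezh1 is chr11:101226414-101226713 and that of Ezh2 is chr6:47594981-47595280. Capitals mark matches on either strand to AATC, the core of the Gfi1 and Gfi1b site, to CCAAT, which NF-Y binds, to AGATAA, which Gata factors bind, to CACCTG, the E-box of Snail proteins, and to TGTGGT, which Runx factors bind.
Ezh1: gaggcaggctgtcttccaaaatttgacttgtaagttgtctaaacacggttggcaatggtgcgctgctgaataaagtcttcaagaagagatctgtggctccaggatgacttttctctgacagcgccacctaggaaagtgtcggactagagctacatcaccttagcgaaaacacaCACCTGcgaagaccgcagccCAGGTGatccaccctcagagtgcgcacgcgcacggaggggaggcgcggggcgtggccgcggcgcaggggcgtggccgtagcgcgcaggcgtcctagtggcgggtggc
Ezh2: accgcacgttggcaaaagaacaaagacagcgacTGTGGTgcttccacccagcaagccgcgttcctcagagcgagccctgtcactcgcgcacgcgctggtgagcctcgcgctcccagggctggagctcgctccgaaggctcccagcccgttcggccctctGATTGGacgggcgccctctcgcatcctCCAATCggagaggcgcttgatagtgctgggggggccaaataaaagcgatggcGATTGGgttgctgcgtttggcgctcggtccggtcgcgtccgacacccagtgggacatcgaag
The Ezh1 window held 2 CACCTG matches and none of the other 4 motifs. The Ezh2 window held 3 AATC matches, each overlapping a CCAAT match, and 1 TGTGGT match. Of 32851 such windows of all genes, 73.1% held AATC, 37.4% CCAAT, 11.2% AGATAA, 20.2% CACCTG and 16.8% TGTGGT. RefSeq windows were at hand for 26 of the 36 genes, 37 windows in all, of which 51.4% held AATC, 32.4% CCAAT, 5.41% AGATAA, 18.9% CACCTG and 13.5% TGTGGT. These windows had a median of 27 CG pairs beside 7 in all windows, so the shares are not like for like. A match is a run of letters and says nothing about binding in these cells.

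Ezh1 had a level of 4.58 in the DMSO array and 5.68 in the inhibitor array, both on the log2 scale as medians over its 19 bright probesets. Its difference, the median of the probeset differences, was 1.16 (SD 1.06 over 19 probesets), and 16 of the 19 were higher with the inhibitor. That SD is the spread over probesets within the 2 arrays and is no replicate error. The probeset values ran from 2.66 to 7.66 in the DMSO array and from 2.66 to 7.80 in the inhibitor array, so the array ranges overlapped, and the shift shows when each probeset is set against itself.

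The probesets of Ezh1 moved by unequal amounts. Probeset 5245382, below 3.17 with DMSO, went from 2.66 to 4.91. Probeset 4353499 went from 4.19 to 6.35 and probeset 4688729 from 3.67 to 5.68. These were the 3 widest gaps upward of Ezh1. Its brightest probeset, 4373755, stood at 7.66 and 7.80, a difference of 0.14. Downward, probeset 4513619 went from 4.35 to 2.66 and probeset 5305316 from 4.58 to 3.42. In all, 10 of the 19 were at least 1 higher and 2 at least 1 lower. Of the 19, 3 were below 3.17 in the DMSO array and 1 in the inhibitor array. Over the 15 probesets bright in both arrays the median was 0.88, with 13 of 15 higher, which no longer met the 2-fold size. As a mean over its 19 probesets, Ezh1 differed by 0.92, also short of 2-fold.

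Ezh2 was nearly level between the arrays. Its levels were 8.03 with DMSO and 8.18 with the inhibitor, its difference was 0.10 (SD 0.66 over 26 probesets), and 17 of 26 probesets were higher. No probeset of Ezh2 was at least 1 higher, and 21 of 26 lay within 0.5 of no change. The contrast between the paralogs is a description of this pair of arrays and was not tested.

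**Figure D1:**
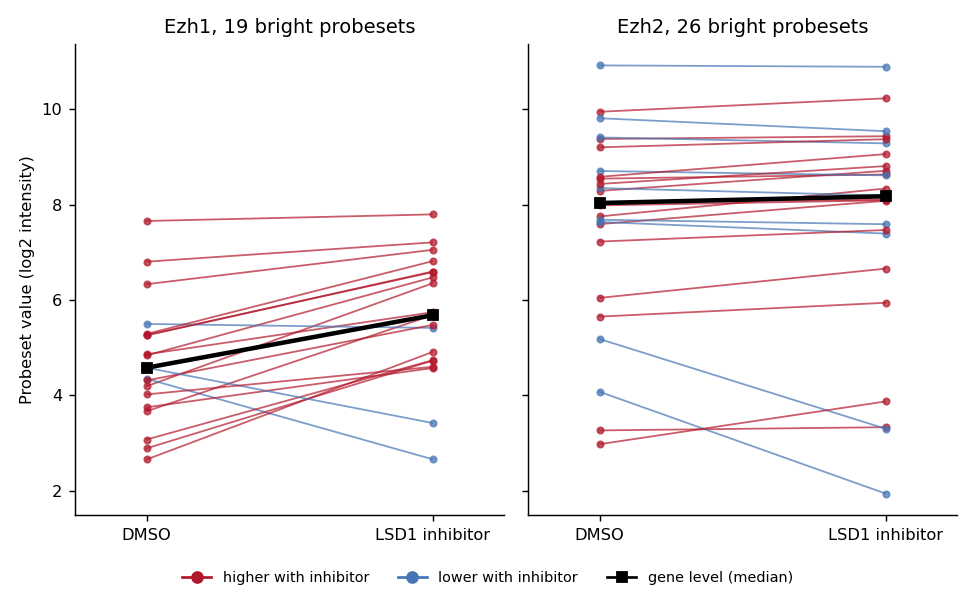
Values of the bright probesets of Ezh1 (left, 19) and Ezh2 (right, 26) in log2 intensity on the vertical axis, each line joining a probeset's value in the DMSO array to its value in the LSD1 inhibitor array; the black squares are the gene levels. Most Ezh1 lines climb, from a median of 4.58 to 5.68, and most Ezh2 lines are flat, from 8.03 to 8.18.

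The other parts of PRC2 did not follow Ezh1. Eed, the subunit that reads methylated H3K27, had levels of 6.89 and 6.998 and a difference of 0.18 (SD 0.37 over 15 probesets, 12 higher). Suz12, the subunit that holds the core complex together, had levels of 7.96 and 7.89 and a difference of -0.19 (SD 0.65 over 21 probesets, 16 lower). These subunits thus lay on opposite sides of 0, neither near the size rule. Suz12 was uniform apart from probeset 4476600, which went from 3.35 to 6.07 while the other 20 probesets lay within 0.5 of no change. Kdm6b, a JmjC demethylase of H3K27 known for its induction by inflammatory signals, had levels of 6.69 and 6.77 and the highest difference after Ezh1, 0.27 (SD 0.46 over 29 probesets, 22 higher). The median of the 5 H3K27 genes was 0.18, beside 0.06 over all measured genes.

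The H3K4 writers were close to level, some above 0 and some below. Kmt2a (MLL1), which maintains Hox gene expression and is needed for blood stem cells, had levels of 6.88 and 6.71 and a difference of -0.25 (SD 0.50, 30 of 42 probesets lower). Kmt2c, which with Kmt2d places monomethyl groups at enhancers, had levels of 6.18 and 5.95 and a difference of -0.25 (SD 0.57, 47 of 64 lower). Kmt2d itself, with 86 probesets the most of any of the 36 genes, had levels of 6.96 and 7.16 and differed the other way, by 0.15 (SD 0.34, 60 of 86 higher). The paralogs Kmt2c and Kmt2d thus differed in sign, each by less than its spread over probesets. Kmt2b, the closest relative of Kmt2a, differed by -0.02, with 21 probesets higher and 22 lower. Of the writers in COMPASS complexes that place most trimethyl groups, Setd1a differed by 0.13 and Setd1b by -0.06. Setd7, an H3K4 monomethyltransferase that also acts on other proteins, differed by 0.13 over 13 probesets. Kmt2e, which belongs to the family by sequence and whose enzyme activity on histones is in doubt, differed by -0.03 with 19 of 38 probesets on each side.

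Wdr5, Ash2l and Rbbp5, core subunits shared by the H3K4 complexes, were also close to level. Wdr5 differed by 0.11, Ash2l by 0.07 and Rbbp5 by -0.05. Dpy30, another subunit of H3K4 complexes, is in the further list given below and was less level. Its levels were 9.48 and 9.80 and its difference 0.39 (SD 0.27, 7 of 8 probesets higher), short of the 1.5-fold rule. Menin (Men1), which tethers Kmt2a and Kmt2b complexes to genes, stood out for its evenness. Its levels were 6.96 and 7.23, its difference 0.26 (SD 0.12), and 9 of 9 probesets were higher by 0.12 to 0.47. Among the 36 genes, Men1 was the only one besides Ezh1 whose difference exceeded its SD over probesets. In the other 34 genes the SD was the larger. The difference of Men1 corresponds to 1.19-fold, well under the 1.5-fold rule.

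The H3K4 erasers among the 36 genes were slightly below 0, each by much less than its spread. Kdm1b (LSD2), an amine oxidase like LSD1, had levels of 4.68 and 4.43 and a difference of -0.23 (SD 0.73, 12 of 18 lower). Kdm5b differed by -0.12 and Kdm5a by -0.07, both being JmjC enzymes that remove trimethyl groups from H3K4. LSD1's own gene Kdm1a, which is not among the 36, had levels of 8.19 and 8.20 and a difference of 0.14 (SD 0.56, 17 of 22 probesets higher). It does not check the treatment, since the compound acts on the protein. The 15 H3K4 genes had a median of -0.03.

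For H3K9 the writers lay on both sides of 0 and the erasers below it. Among the writers, Ehmt2 (G9a) differed by 0.19 and its partner Ehmt1 (GLP) by 0.11, enzymes that dimethylate H3K9 in euchromatin as a pair. The heterochromatin enzyme Suv39h1 differed by -0.06 and its paralog Suv39h2 by 0.25, with 5 of 9 probesets of Suv39h2 higher. Setdb1, which silences retroelements together with Trim28, differed by -0.08. Of the 5 writers, 3 had a difference above 0 and 2 below, but for Suv39h2 the gap between its levels, 5.72 and 5.45, had the opposite sign.

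All 6 H3K9 erasers among the 36 genes were below 0. When each array was centred on its median, 5 of 6 were below 0 and Kdm3b turned to above 0. After quantile normalization and after removal of a level-dependent trend, 6 of 6 were below 0. Furthest down of these 6 was Jmjd1c, which had levels of 6.47 and 6.13 and a difference of -0.26 (SD 0.76, 27 of 38 lower). Next of the 6 was Kdm4a, with levels of 5.49 and 5.25 and a difference of -0.25 (SD 0.70, 12 of 19 lower). Kdm3a, an enzyme that hypoxia induces, differed by -0.23 (22 of 32 lower). Kdm3b, Kdm4b and Kdm4c differed by -0.08, -0.09 and -0.07. The median of the 6 was -0.16, and 40.9% of all measured genes were below 0. With the other choices of probesets and of dim values 4 to 6 of the 6 were below 0. The SD over probesets was 0.33 to 0.79 in these genes, larger than each difference, and in Kdm3b, Kdm4b and Kdm4c the gap between the 2 levels had the opposite sign. Of the 12 erasers among the 36 genes, 10 were below 0, and 9 to 11 under the 3 scalings. Kdm6b and Kdm2b, at 0.27 and 0.00056, were the others. With odd-ranked probesets alone, or with values below the table median raised to it, 8 of the 12 were below 0. Measured erasers outside the 36 genes, from the further list given below, went both ways. For H3K9, Phf8 was at 0.09, Phf2 at 0.11, Hr at 0.02, Kdm7a at -0.05 and Kdm4d at -0.93. For H3K4, Kdm1a was at 0.14, Kdm5c at 0.07 and Kdm5d at -0.36. The gap between the levels of Kdm7a and of Kdm5c had the opposite sign, so these values give them no direction. Kdm5d had low levels, 3.79 and 3.65, with 5 probesets higher and 6 lower (SD 0.98). Kdm6a was at 0.42 and Kdm8 at 0.22.

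The H3K36 and H3K79 groups had the medians nearest to 0, at -0.0088 over 4 genes and 0.0065 for the single H3K79 gene. Setd2, the enzyme that trimethylates H3K36 behind RNA polymerase II, had levels of 7.82 and 7.63 and differed by -0.02 (SD 0.35, 14 of 29 higher). Nsd1, which dimethylates H3K36, differed by 0.0015 (SD 0.42, 14 of 27 higher). The erasers Kdm2a and Kdm2b, whose CXXC domains bind unmethylated CpG islands, differed by -0.05 and 0.00056. Their levels were further apart than that, 7.18 and 7.38 for Kdm2a, and 5.74 and 6.03 for Kdm2b. Dot1l, the H3K79 methyltransferase, had levels of 6.40 and 6.41 (SD of the difference 0.41, 14 of 27 higher). Their probesets were split almost evenly between higher and lower, and the signs of Setd2, Nsd1, Kdm2b and Dot1l turned under at least 1 of the 3 scalings.

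**Figure D2:**
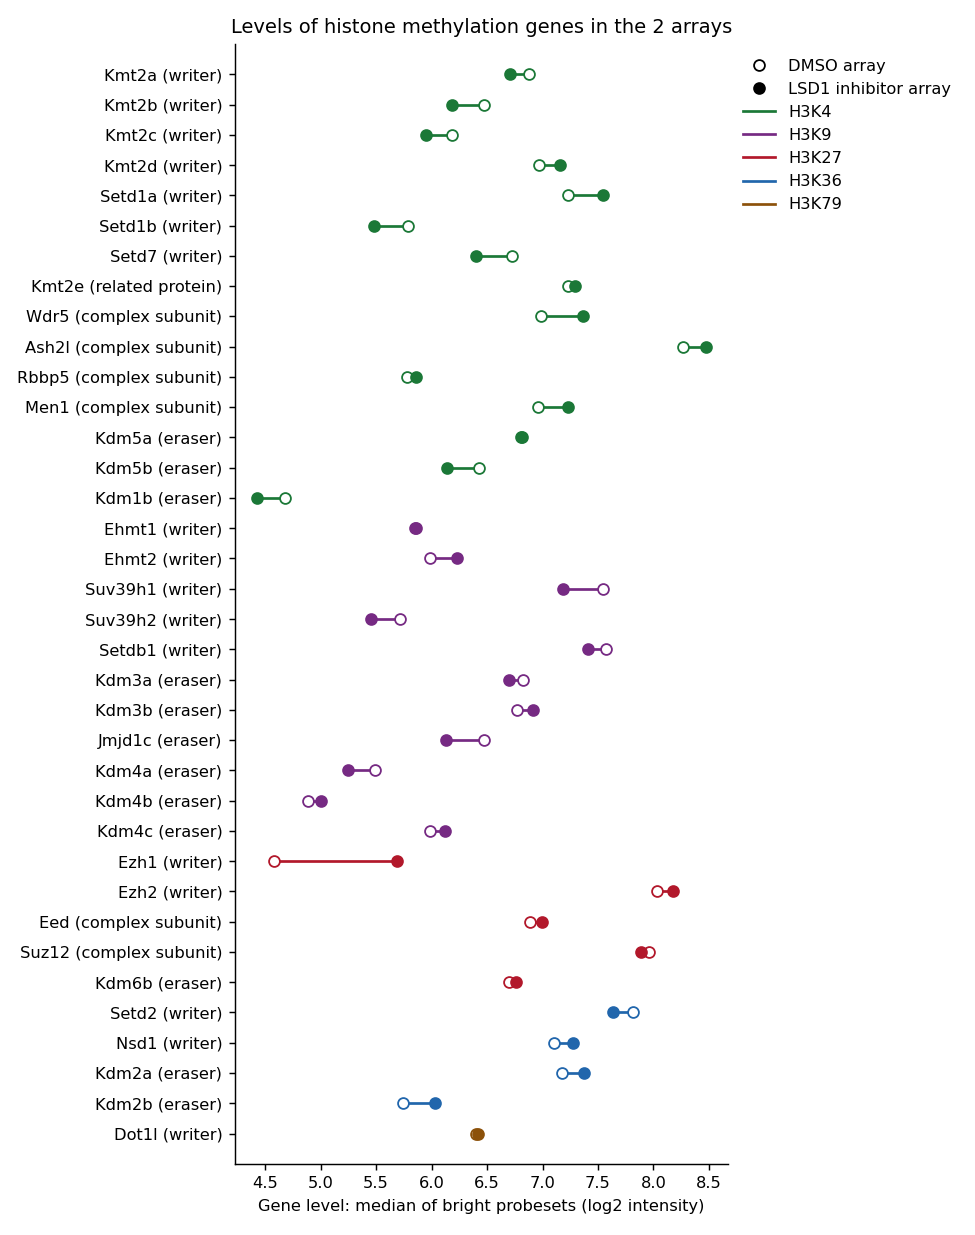
Level of each of the 36 genes, the median of its bright probesets in log2 intensity, in the DMSO array (open circle) and the LSD1 inhibitor array (filled circle), coloured by target lysine. The Ezh1 pair, 4.58 and 5.68, is set wide apart, whereas Kdm5a, Ehmt1 and Dot1l have circles that nearly coincide; levels of different genes rest on different probesets and are not comparable.

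The gap between the levels and the median of the probeset differences need not match. In 8 of the 36 genes they had opposite signs, among them Suv39h2, with a gap between the levels of -0.27 and a difference of 0.25, and Setd7, with a gap of -0.33 and a difference of 0.13. These values give the 8 genes no direction. The others were Kmt2e, Rbbp5, Kdm3b, Kdm4b, Kdm4c and Kdm2a.

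**Figure D3:**
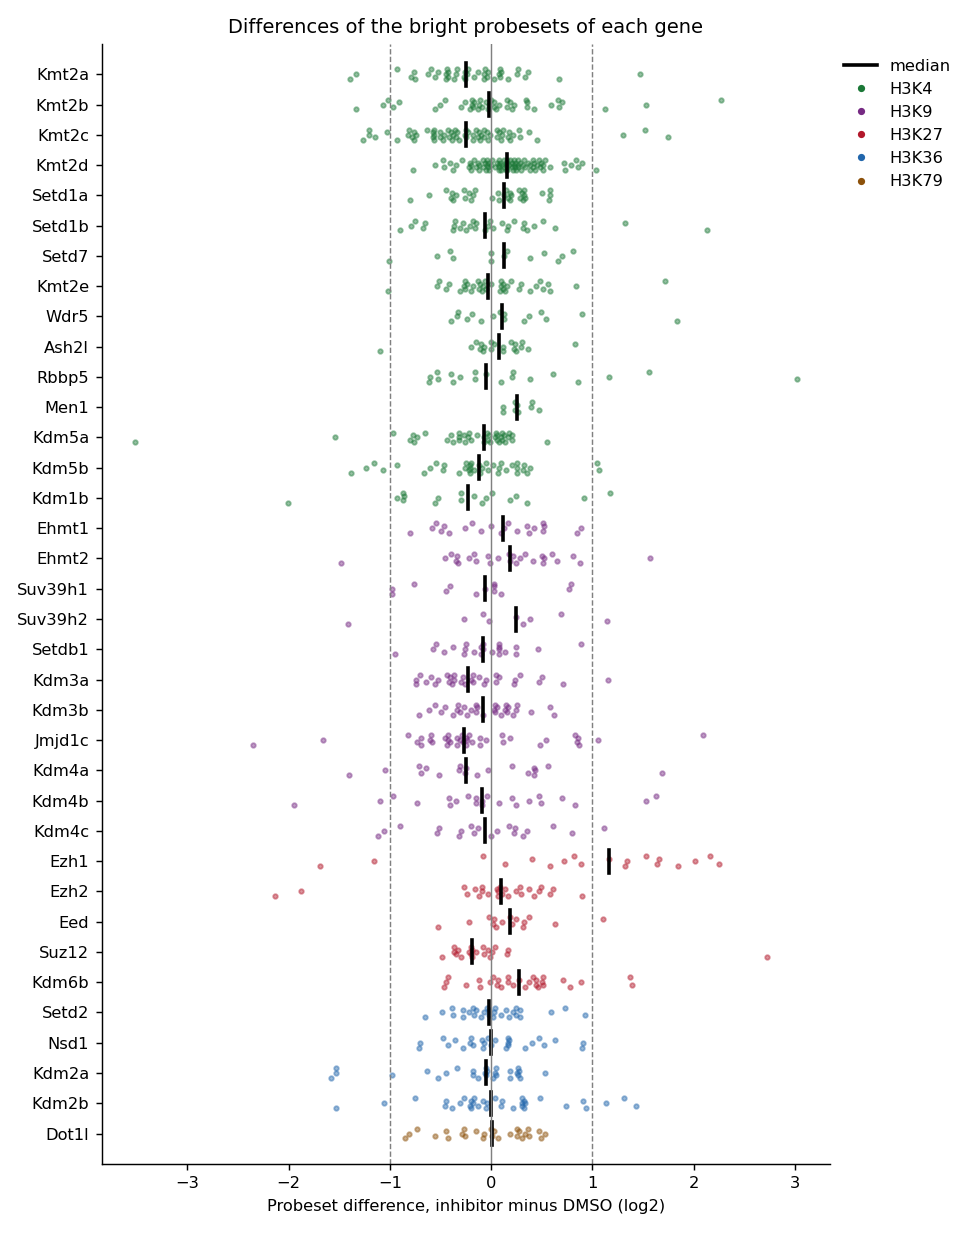
Difference of every bright probeset, inhibitor minus DMSO in log2, for each of the 36 genes, with the median as a black bar and dashed lines at -1 and 1. The bars lie between -0.26 and 0.27 for all genes but Ezh1, at 1.16, and the points of single genes scatter by far more than the bars do.

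Single probesets departed from their gene in several members. Of the 1023 bright probesets of the 36 genes, 4.30% were at least 1 higher and 3.81% at least 1 lower, beside 8.69% and 6.04% of the 208583 bright probesets of all genes. The 36 genes were also brighter, with a median DMSO level of 6.74 beside 5.30 over all measured genes, and the shares were not matched on brightness. Outside Ezh1, counting only probesets bright in both arrays, 10 differed by at least 1.5, each in a different gene, 7 upward and 3 downward. Besides that of Suz12, probeset 4430301 of Kmt2b went from 3.62 to 5.89 and probeset 4416237 of Wdr5 from 3.85 to 5.68, whereas probeset 4541034 of Kdm1b went from 5.60 to 3.60 and probeset 5312647 of Ezh2 from 5.18 to 3.30. These are values of single probesets, with no second measurement. The widest gaps of all came from probesets dim in 1 array, such as probeset 4389449 of Kdm5a, which differed by -3.52 and had an inhibitor value of 0.58.

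The 36 genes ran from -0.26 to 1.16, and 97.2% of them (35 of 36) lay within 0.3 of no change, beside 68.4% of all measured genes. That width lies just beyond the widest difference among those other than Ezh1, 0.27, which favours the 36 genes. Within 0.5 of no change the shares were 97.2% and 85.7%. The probesets of the 36 genes are many, with a median of 27 beside 10 over all measured genes. A median over more probesets varies less. Among the 2760 genes with at least 20 bright probesets, 80.0% lay within 0.3 and 90.6% within 0.5. All 26 of the 36 genes that have so many lay within 0.3, a set that leaves out Ezh1 with its 19. The median absolute difference was 0.084 in those 26 and 0.14 in the 2760. Those 26 were also brighter, with a median DMSO level of 6.79 beside 6.12, and were not matched on brightness. Over all 36 genes the median difference was -0.02 beside 0.06 for all measured genes, with 16 above 0 and 20 below. These counts include the 8 genes whose gap between the levels had the opposite sign. No test of the contrast with all measured genes was possible.

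**Figure D4:**
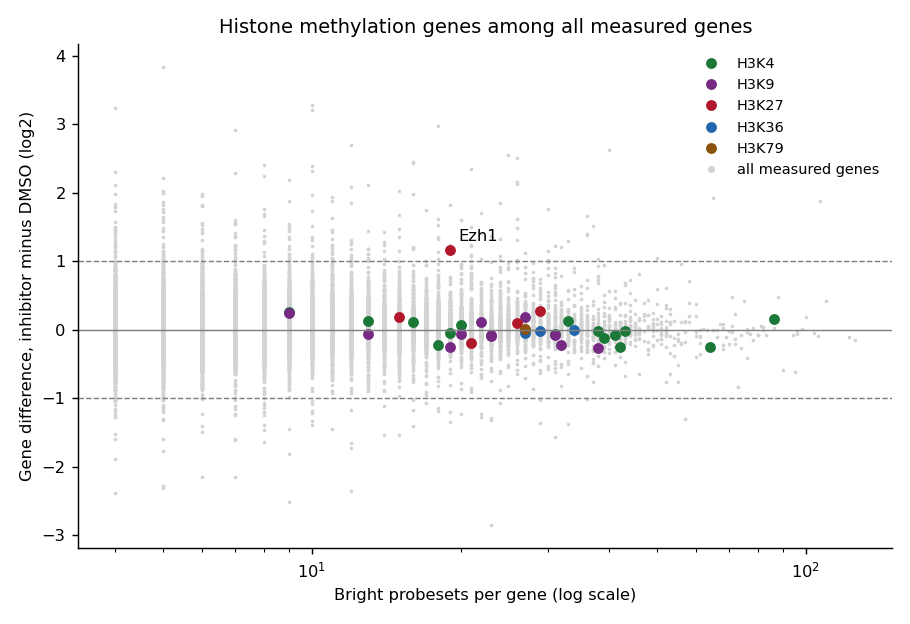
Difference of each measured gene, inhibitor minus DMSO in log2, against its number of bright probesets on a log axis, with all 15087 measured genes in grey and the 36 histone methylation genes coloured by target lysine; dashed lines mark -1 and 1. Ezh1 lies above the upper line, and the others sit in the narrow middle of genes with as many probesets.

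Other genes of histone methylation, from a further list of 53 of which 51 were measured, also differed little for the most part, with 80.4% of the 51 within 0.3 of no change and a median of 0.08. Of the 51, 1 gene was higher past the 2-fold rule and none was lower, beside 1.72% and 0.563% of all measured genes. Of the 51, 68.6% were above 0, beside 44.4% of the 36 genes and 59.0% of all measured genes. These shares count the sign of each difference, also where the gap between the levels had the opposite sign. The higher gene was Mecom (Prdm3), a transcription factor of blood stem cells of the PRDM family with reported H3K9 methyltransferase activity. It had levels of 3.76 and 5.12 and a difference of 1.24 (SD 0.96, 18 of 21 probesets higher). Its probeset values went down to 1.72 with DMSO and 2.47 with the inhibitor, so some were below 3.17 in 1 array. Its difference over probesets bright in both arrays was not worked out. Kdm4d, a germline relative of Kdm4a, was lower past the 1.5-fold rule at -0.93, on 4 bright probesets with an SD of 1.76. Of the PRC2 core and accessory proteins in the list, the histone chaperones Rbbp4 and Rbbp7 differed by -0.05 and 0.03. Among the accessory proteins, Epop differed by 0.25 (6 of 8 probesets higher), Phf1 by 0.20 (8 of 11 higher), Jarid2 and Phf19 by 0.12, Mtf2 by 0.09 and Aebp2 by -0.04. For Rbbp4, Rbbp7, Jarid2, Phf19 and Aebp2 the gap between the levels had the opposite sign, so these values give them no direction. Kdm6a (UTX), the second H3K27 demethylase, differed by 0.42 with 23 of 30 probesets higher, and Nsd3, a relative of Nsd1, by -0.42 with 27 of 35 lower, both short of the 1.5-fold rule.

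On the chromosome, Ezh1 lies between Cntnap1 and Ramp2 in the order of RefSeq protein-coding genes. Ramp2, a part of the adrenomedullin receptor of endothelium, had levels of 5.84 and 9.62 and a difference of 2.92 (SD 1.74, 6 of 7 probesets higher). Cntnap1 differed by 0.36 (11 of 16 higher), and beyond Ramp2, Vps25 differed by 0.16. Of the 4 nearest genes on each side, Ramp2 alone passed the size rule among the 7 measured, and Wnk4 was not measured. The neighbours were looked up after the value of Ezh1 was known, and the part of this neighbourhood in the difference was not tested.

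Markers of cell types moved between the arrays as well. Beside the counts below, 1.72% of all measured genes were higher past the size rule and 0.563% were lower. Of the 10 markers used for hemogenic endothelium all were measured, with a median difference of 0.85. Past the size rule 3 were higher (Gfi1, Gfi1b and Cdh5) and none was lower. The lists overlap, since Cdh5, Kdr, Tek and Pecam1 are also endothelial markers here and Itga2b is also a megakaryocyte marker. The 10 markers went both ways. Gfi1 differed by 2.43 and Gfi1b by 1.56, whereas Kit differed by -0.66 (20 of 22 probesets lower) and Tal1 by -0.46 (9 of 9 lower). Runx1 had levels of 8.44 and 8.60, and Itga2b, the gene of CD41, 6.19 and 5.996. Without a detection call, presence of a transcript cannot be stated for either array. Of 19 measured endothelial markers, 11 were higher past the size rule, with a median level over the list of 5.84 with DMSO and 7.26 with the inhibitor. Of 17 measured erythroid markers, 13 were lower, with median levels of 6.16 and 5.06, and of 10 megakaryocyte markers 3 were lower. Of 11 measured myeloid markers 2 were higher, and of 11 mesenchyme markers 2 were lower. The part of these shifts in the difference of Ezh1 was not tested. The 22 measured cell cycle genes had a median of 0.01 and none passed the size rule.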

How the data were processed

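Total RNA of 1 DMSO culture and 1 LSD1 inhibitor culture was hybridised to 1 Affymetrix array each. The authors deposited 1 value per probeset and array, read here as log2 intensity from the range of 0.157 to 13.5, and how they summarised and normalized these log2 values is not stated in the labels. Ranked from low to high, the columns are never further apart than 0.085. The table has 1048575 probesets, which with its header line fills a common spreadsheet's row limit. It may be cut there, so the probesets per gene may be incomplete, and any further ones were not analysed here.

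Probesets were named from the platform annotation, with older symbols updated through RefSeq of GRCm38.p6. Of the 36 genes, 20 carried their current symbol on every probeset. Mll2 is an older symbol of both Kmt2b and Kmt2d and was read as Kmt2d, because Kmt2b has its own entry, Wbp7. Probesets with several symbols were left out. None of them named a member.

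Values were used as deposited. Levels, differences, the minimum of 4 bright probesets and the 2-fold and 1.5-fold rules are defined above. The named genes were all 36 members, the genes past a rule in the context list, and Kdm1a. Markers and further genes were named as examples. The members and lists were chosen with earlier results of these data known. The summary was run on simulated data with independent noise per probeset. Such data hold no variation between cultures or arrays, so the run does not check the calls made here. Python 3.11.15, pandas 2.3.3 and statsmodels 0.14.6 were used.

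The alternatives were each array centred, quantile normalization, removal of a level-dependent trend (lowess, span 0.2), dim probesets kept, a stricter filter (75th percentile), the mean over probesets, probesets of several genes kept, at least 8 or at least 1 bright probesets, odd-ranked or even-ranked probesets alone, and a floor at the median of the table. A further alternative, chosen after seeing the data, used only probesets bright in both arrays. With 1 array per group the number of arrays limits the precision.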

Additional observations from a re-analysis of the deposited data

How the results depend on the processing

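Ezh1 had the highest difference of the 36 genes in all 13 alternatives, between 0.88 and 1.32, and passed the 2-fold rule in 11 of them. The exceptions were the mean over probesets and the probesets bright in both arrays, where the number of genes past the rule went from 1 to 0. None of the other 35 genes passed the 2-fold or the 1.5-fold rule in any of the 13. Of the 36 genes, 22 kept their sign throughout, and 14 turned in at least 1 alternative, 7 of them in a scaling. The median of the 4 H3K36 genes, -0.0088, was 0.018 with each array centred, -0.032 after quantile normalization and 0.033 as a mean over probesets. The causes were not tested. No paired analysis was possible because each group has 1 array. The table has no detection call, so how far a probeset stands above background is not known.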
